A study of Homo sapiens and Mus musculus with 10 samples.

Results

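Imprinted genes are transcribed mainly from the copy inherited from 1 parent, and 10 of them are described here: H19, IGF2, KCNQ1OT1, CDKN1C, MEG3, DLK1, PEG3, PEG10, SNRPN and MEST. They were taken by name from GENCODE release 44, and their mouse namesakes were used for the mouse line. All 10 were found among the 38726 human protein-coding and lncRNA genes on the autosomes and X, and all 10 among the 31358 mouse genes. Open chromatin had been profiled by bulk ATAC-seq, which marks accessible DNA by where the Tn5 transposase inserts adapters, in 5 untreated lines with 2 replicates each. GM12878 is a B-lymphoblastoid line, HFF1 are foreskin fibroblasts, K562 came from an erythroleukaemia, HEK293T are embryonic kidney cells carrying SV40 T antigen, and mESC denotes mouse embryonic stem cells grown without feeders in medium with leukemia inhibitory factor. Each line stands for its cell type through 1 established culture, and the labels do not say whether the replicates were separate cultures, so any p-value measures only the spread between these libraries.

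Imprinting rests on control regions that carry DNA methylation on the copy from 1 parent and not on the other. Some control regions are themselves promoters, such as those of KCNQ1OT1, SNRPN, PEG3, PEG10 and MEST, and others lie between genes, such as the stretch upstream of H19 and the one between DLK1 and MEG3. The zinc finger protein ZFP57 binds the methylated letters TGCCGC and protects the mark in early embryos, and CTCF binds the unmethylated copy of the H19 region as an insulator. A peak list does not separate the parental copies, so a site open on 1 copy and a site open on both cannot be told apart. In bulk nuclei, a site open in fewer cells and a site open less often in every cell cannot be told apart either.

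The lists held 52137 to 142194 peaks on the autosomes and X, with the fewest in HEK293T. The background level recovered from the lists, which follows depth, was about 0.465 reads per window in both HEK293T libraries and 1.71 to 2.43 in the other 6 human libraries. A site with no peak in HEK293T was therefore measured at lower depth than in the other lines. Start-site peaks were present in both replicates at 5 of 5 marker genes of GM12878, HEK293T, HFF1 and mESC and at 4 of 5 of K562, where KLF1, an erythroid transcription factor, had none. All 5 marker genes of other cells that mESC cultures can hold also had one in mESC. In each human line, 1 to 3 of the 5 markers of every other human line were called too, so start-site peaks identified the lines only in part.

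A gene counted as called in a line if both libraries of the line had a peak within 1 kb of any annotated start of the gene. Genes with more annotated starts had more windows in which to be called, such as human MEG3 with 34, H19 with 24 and MEST with 17. Of the 10 genes, 6 were called in GM12878, against 52.3% of all human genes tested in that line. HFF1 had 7 of 10 (56.6% of all genes), K562 had 3 of 10 (50.9%) and HEK293T had 3 of 10 (47.2%). In mESC 9 of 10 were called, against 63.6% of all mouse genes. Limiting each list to its 50000 strongest peaks left 4 of 10 called in mESC. The share of all mouse genes under that limit is not given here, so the drop is no result about these genes. KCNQ1OT1 and CDKN1C were called in all 4 human lines, as were 40.3% of all human genes. H19, DLK1 and PEG3 were called in none of the 4, as were 34.9% of all human genes, and had no start-site peak in any of the 8 human libraries, as had 31.0% of all. Without replicate 2 of K562 its count was 5 of 10, because MEG3 and PEG10 had a peak in replicate 1 only.

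**Figure D1:**
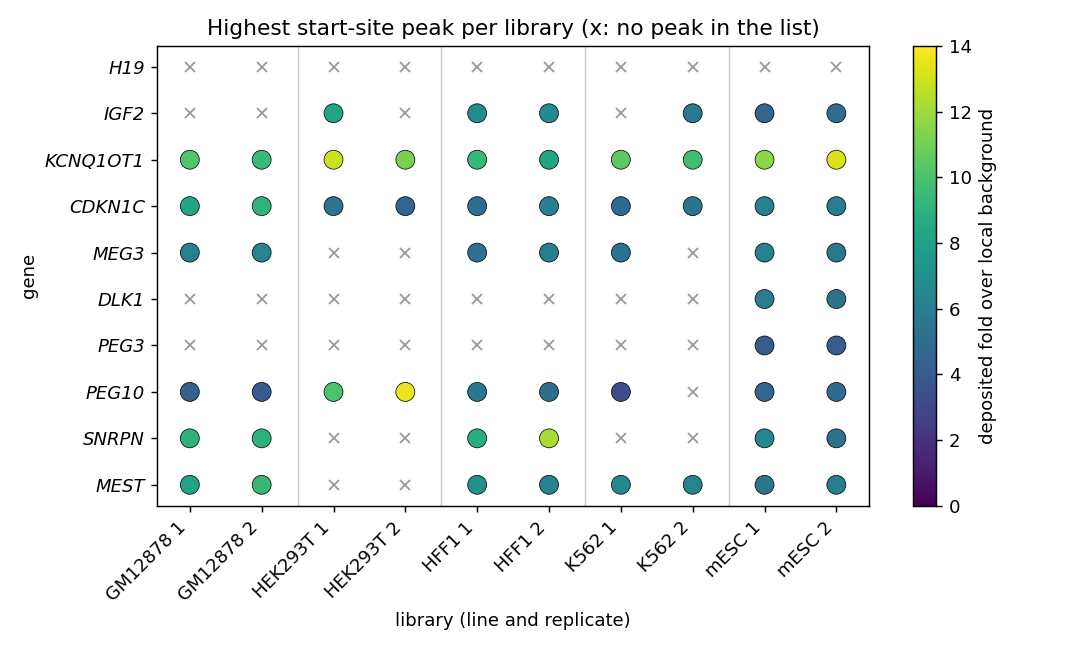
Highest deposited fold of any peak within 1 kb of a start site of each gene (rows) in each library (columns, line and replicate); a cross marks a library whose list holds no such peak. KCNQ1OT1 and CDKN1C have a circle in all 10 libraries, H19 in none, and DLK1 and PEG3 only in the 2 mESC libraries. The folds are the authors' own and are scaled to each library's background.

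Among the genes are 3 that give noncoding RNAs: H19, KCNQ1OT1 and MEG3. KCNQ1OT1 is read from within the KCNQ1 gene in the antisense direction and silences neighbouring genes in cis. Its start (GRCh38 chr11:2597308-2700003, minus strand) was open in every human library, in an intron of KCNQ1 just upstream of the first KCNQ1OT1 base. The deposited fold of this peak over the local background was 10.2 and 9.50 in GM12878, 12.9 and 11.2 in HEK293T, 9.35 and 8.26 in HFF1, and 10.5 and 9.73 in K562 (replicates 1 and 2). All 8 summits of this peak lay 108 to 178 bp upstream of the nearest annotated start. The peak stood high in every list: its −log10 p reached or exceeded that of 76.4% to 95.3% of the peaks in the same list. In mESC the fold was 11.6 and 13.2, with summits 62 and 52 bp upstream of the Kcnq1ot1 start. KCNQ1OT1 was thus called in all 5 lines, always with a main summit upstream of and close to its start.

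H19 is transcribed from the maternal copy next to IGF2 and is among the most abundant RNAs of the fetus. No list held a peak within 1 kb of any H19 start site, in human (GRCh38 chr11:1995166-2004552, minus strand) or in mESC. The human gene lies in a stretch of 119.07 kb without a peak in any of the 8 human libraries. That stretch also holds the start of MRPL23, a mitochondrial ribosomal protein gene, which had a peak in both replicates in mESC. The absence of a human peak at H19 is thus a property of the lists used here, and is not taken as a measure of closed chromatin. The only peaks within 50 kb were in GM12878, at the very edge of the stretch (chr11:1953555-1953752, in an intron of MRPL23), with folds of 8.11 and 7.68.

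The control region upstream of H19 was open in mESC. Counted from the mouse start shared by most H19 transcripts, 2 regions 1.9 to 3.8 kb upstream had a peak in both replicates. The nearer one (GRCm38 chr7:142580077-142580601) had folds of 5.49 and 4.94, and the farther one (chr7:142581302-142581933) had 4.67 and 6.18. The CTCF core sequence of this control region was searched on both strands with 2 of its letters free, and its matches are printed because they repeat within the region in both species. The 5000 bp window from 1 to 6 kb upstream holds 3 exact matches in mouse and 5 in human. Windows of the same length placed from the reference start of each gene held a match for 0.0255% of 31358 mouse genes and for 0.0852% of 38726 human genes. The letters searched come from this control region, so finding them there was fixed in advance. These shares are therefore no test of enrichment. From its own reference start, the H19 window holds 3 matches in mouse and 0 in human. Sequences are written on the strand of the match, 5′ to 3′, with the core in capitals:
mouse chr7:142580301-142580330: agacgatgCCGCGTGGTGGCAGtacaatac
mouse chr7:142580756-142580785: ggatgctaCCGCGCGGTGGCAGcatactcc
mouse chr7:142582026-142582055: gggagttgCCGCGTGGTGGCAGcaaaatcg
human chr11:1999960-1999989: ggaagtggCCGCGCGGCGGCAGtgcaggct
human chr11:2000772-2000801: ggaagtggCCGCGTGGCGGCAGtgcaggct
human chr11:2002205-2002234: aaaagtggCCGCGCGGCGGCAGtgcaggct
human chr11:2002606-2002635: ggaagtggCCGCGCGGCGGCAGtgcaggct
human chr11:2003011-2003040: agaagtggCCGCGCGGCGGCAGtgcaggct
All 8 matches lie on the minus strand, the strand of H19. The first mouse match lies under the nearer peak in both mESC libraries, and the other 2 mouse matches lie under no peak. A match is a stretch of letters and not a measured binding site. The human matches fall in the stretch without peaks described above, so no peak list bears on them here.

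**Figure D2:**
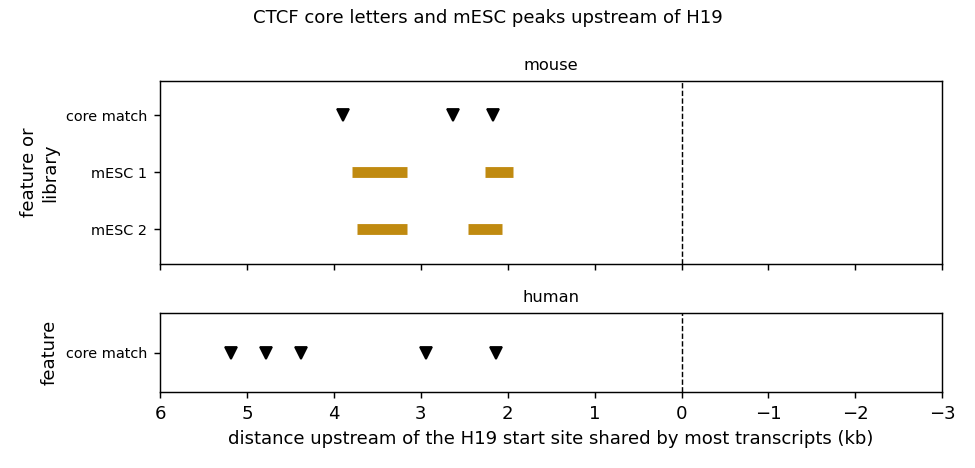
Positions of exact core matches (triangles) and of mESC peaks (bars, 1 row for each replicate) against the distance in kb upstream of the H19 start shared by most transcripts, for mouse (top) and human (bottom). The first of 3 mouse matches sits inside the nearer peak of both replicates, and the 5 human matches are drawn without libraries since the human lists hold no peak there.

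MEG3 is a maternally expressed RNA of the DLK1 domain. HFF1 was the only human line with peaks at the MEG3 start shared by most transcripts (chr14:100826118), with folds of 5.18 and 5.96 and summits 3 and 2 bp from an annotated start. A second, weaker peak about 2 kb downstream had folds of 2.68 and 3.54 in HFF1 and was also present in K562 replicate 1 (fold 5.30), not in replicate 2. GM12878 was called through another peak, in an intron shared with MIR493HG (chr14:100844109-100844759), with folds of 6.02 and 6.39. Neither HEK293T library had a peak at any MEG3 start. In mESC neither library had a peak within 1 kb of the Meg3 start shared by most transcripts. There 3 regions at other Meg3 starts were called, with summits 1280 to 2663 bp downstream of the Meg3 reference start. The highest fold of each replicate was 6.20 and 5.65, at chr12:109542796-109543283.

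The MEG3 promoter is printed because it was open in both HFF1 replicates and in no other human library. The RefSeq sequence of GRCh38.p14 (chr14:100825868-100826167, plus strand, 250 bases before to 50 after the start) holds TGCCGC once on the opposite strand, which reads as the capitals GCGGCA here:
MEG3 promoter: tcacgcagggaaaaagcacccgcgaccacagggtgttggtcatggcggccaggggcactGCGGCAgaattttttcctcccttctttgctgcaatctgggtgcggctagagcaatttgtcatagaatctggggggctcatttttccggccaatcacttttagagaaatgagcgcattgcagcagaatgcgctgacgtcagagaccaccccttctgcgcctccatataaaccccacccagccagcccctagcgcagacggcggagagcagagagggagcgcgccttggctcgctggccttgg

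The protein-coding partners of these RNAs are IGF2, CDKN1C and DLK1. IGF2, a fetal growth factor expressed from the paternal copy (chr11:2129112-2158391, minus strand), was called in HFF1 alone. Its main peak there (chr11:2137210-2137770, intronic in IGF2) had folds of 6.83 and 6.67, with summits 48 and 37 bp upstream of a start. The same place had a peak in HEK293T replicate 1 (fold 8.28) and K562 replicate 2 (fold 5.73), each without a counterpart in the other replicate, and none in GM12878. With pileups scaled to the HEK293T depth, an alternative chosen after seeing the data, the K562 peak was lost and IGF2 was still called in HFF1. A second HFF1 peak at chr11:2150297-2150455 had folds of 4.15 and 4.00. In mESC both replicates had peaks at 2 Igf2 start regions, with folds of 4.45 and 3.46 at the first (chr7:142658990-142659597) and 4.48 and 4.89 at the second (chr7:142660231-142660976).

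CDKN1C encodes the cyclin-dependent kinase inhibitor p57, which restrains growth from the maternal copy (chr11:2883213-2885775, minus strand). Its start was called in all 5 lines. The peak just upstream of it had folds of 8.35 and 9.08 in GM12878, 4.29 and 4.54 in HEK293T, 4.98 and 5.86 in HFF1, and 4.86 and 5.39 in K562. In GM12878 its −log10 p exceeded that of 80.5% and 84.8% of the list, but in HEK293T only 2.16% and 2.42%, so both HEK293T peaks were close to the end of their lists. With a −log10 q of at least 5, HEK293T kept 2 of its 3 called genes. HFF1 had 2 further regions on either side of this peak, from 2884500 to 2884834 inside the gene (fold up to 3.35) and from 2886260 to 2886480 upstream (fold up to 2.81). In mESC the folds just upstream were 6.02 and 5.80.

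DLK1, a NOTCH-related membrane protein expressed from the paternal copy (chr14:100725705-100738224, plus strand), had no start-site peak in any human library. It was flanked by peaks in HFF1, as described below, so the list was not empty around it. The longest stretch around its start without a human peak measured 21.99 kb. In mESC Dlk1 was called at 3 regions, and the one at its first exon (chr12:109452792-109453358) had folds of 5.89 and 5.34.

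The other 4 genes are transcribed from the paternal copy and have a start at or beside their own control region. SNRPN encodes a small nuclear ribonucleoprotein and shares its main promoter with SNURF (SNRPN chr15:24823637-24978723, plus strand). It was open in GM12878 (folds 8.999 and 8.997) and HFF1 (8.70 and 12.2), with all 4 summits within 7 bp of the start. HEK293T and K562 had no SNRPN start-site peak in either replicate. Scaling to the HEK293T depth left the GM12878 and HFF1 peaks in place in both replicates. A second region within the gene, chr15:24956214-24956979, followed the same lines, with folds of 8.32 and 9.47 in GM12878 and 5.20 and 6.67 in HFF1. In mESC 2 Snrpn start-site regions were called, with folds of 6.48 and 5.11 at chr7:60003923-60004464 and 5.35 and 5.30 at chr7:60005023-60005247. The human promoter is printed because the 4 lines split 2 against 2 at it (RefSeq, GRCh38.p14, chr15:24954737-24954934, plus strand, ending before any annotated UTR). The capitals mark TGCCGC on the opposite strand:
SNURF-SNRPN promoter: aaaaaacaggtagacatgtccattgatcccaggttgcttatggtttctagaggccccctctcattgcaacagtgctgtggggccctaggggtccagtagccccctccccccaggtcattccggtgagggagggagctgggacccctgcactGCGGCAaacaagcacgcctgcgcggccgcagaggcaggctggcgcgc

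MEST, an enzyme of the alpha/beta hydrolase fold family (chr7:130486171-130506465, plus strand), was open at different starts in different lines. GM12878 and K562 shared a region at its most upstream start, chr7:130486070-130486986, which overlaps an exon of the antisense RNA MESTIT1. Its highest fold was 8.14 and 9.37 in GM12878 and 6.55 and 4.86 in K562. HFF1 had no peak there and instead had 2 regions about 5 kb downstream, from 130490924 to 130491143 (folds 6.17 and 6.20) and from 130491245 to 130491646 (7.00 and 4.46). K562 alone also had chr7:130494377-130494969, in an intron, with folds of 6.53 and 6.31. HEK293T had no MEST start-site peak in either replicate. Within 1 kb of the MEST reference start, the control window used below, HFF1 alone among the human lines had a peak. After scaling to the HEK293T depth, MEST was still called in GM12878, HFF1 and K562. In mESC the highest folds at Mest were 5.43 and 5.96, both at the start of the Mest-202 transcript. The sequence around the replicate 1 summit of the first HFF1 region is shown because no other human line had a peak there. In replicate 1 that region had the lower fold of the 2 (printed: GRCh38 chr7:130491005-130491125, plus strand, CpG dinucleotides in capitals):
MEST region of HFF1: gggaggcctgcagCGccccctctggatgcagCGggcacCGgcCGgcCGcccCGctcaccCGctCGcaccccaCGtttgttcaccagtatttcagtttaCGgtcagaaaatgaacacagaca

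**Figure D3:**
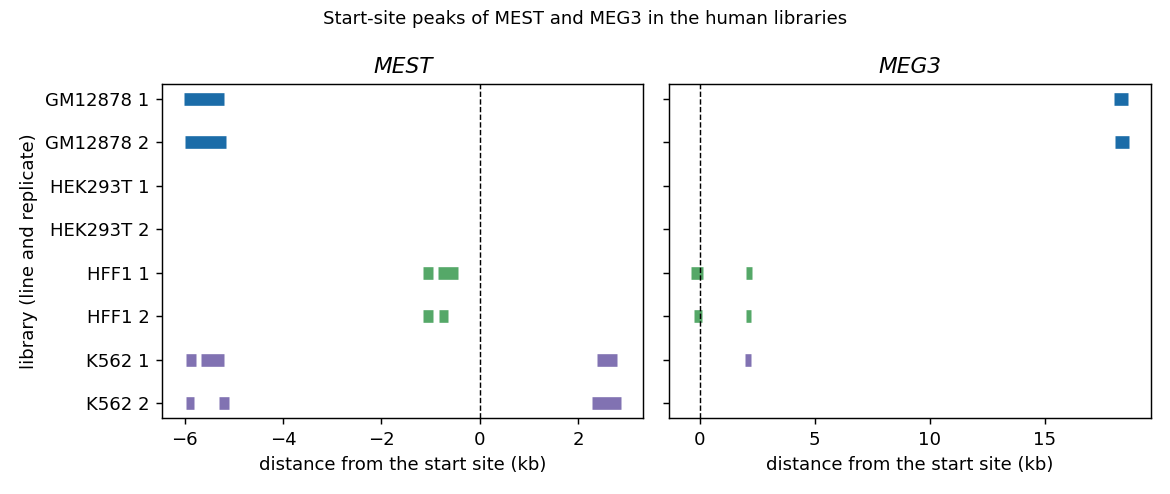
Peaks within 1 kb of any start of MEST (left) and MEG3 (right) in the 8 human libraries, as bars against the distance in kb from the MEST reference start and from the MEG3 start shared by most transcripts (dashed lines). GM12878 and K562 share the upstream MEST region, HFF1 has its own 2 regions, and both HEK293T rows are empty for both genes.

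PEG10 is a gene of retrotransposon origin needed by the mouse placenta (chr7:94656325-94669695, plus strand), and it starts head to head with SGCE. The peak between them was open in GM12878 (folds 4.35 and 3.86), HEK293T (10.1 and 13.6) and HFF1 (5.67 and 5.08). It was absent from both K562 lists, although K562 replicate 1 had a weak peak at another start (fold 3.29, chr7:94664160-94664367, in a PEG10 exon). In the shallow HEK293T lists its −log10 p reached or exceeded that of 70.0% and 88.1% of the peaks. K562 had a stronger region just outside the 1 kb limit, chr7:94657687-94658693 in a PEG10 intron, 1141 bp from the nearest PEG10 start, with folds of 9.75 and 10.4. That region was also present in GM12878 and HFF1 and not in HEK293T. Just inside the limit, the GM12878 peak at MEG3 reached to 700 bp from a start. In mESC the highest folds of a peak within 1 kb of a Peg10 start were 4.46 and 4.83, and an intronic region 1595 bp from a start (chr6:4749001-4749515) had 7.99 and 8.89.

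PEG3, a zinc finger protein gene (chr19:56810077-56840728, minus strand), had no peak within 50 kb of its body in any human library. It lay in a stretch of 460.935 kb without a human peak, which ranked 91 of 243177 such stretches by length and also held the starts of ZIM2, SMIM17 and ZNF835. As at H19, this describes the lists used here and not the state of the chromatin. In mESC 2 regions at the Peg3 start were called, with folds of 3.96 and 4.07 at chr7:6730247-6730610 and 3.51 and 3.53 at chr7:6729439-6729769. A further 9 regions within 50 kb were called in mESC, among them one near Zim1 with folds of 14.9 and 15.2.

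The 8 control regions were also placed by fixed distances: 1 kb on either side of 6 reference starts, 1 to 6 kb upstream of H19 and 10 to 18 kb upstream of MEG3. GM12878 had 3 of 8 called, HEK293T 2, HFF1 5, K562 1 and mESC 6. Among the human lines, the MEST window was called in HFF1 alone. The H19 and PEG3 windows lie in the human stretches without a peak described above, so neither could be called in a human line. Both were called in mESC. Of all genes in GM12878, 48.2% had a called peak within 1 kb of the reference start, 24.7% had one 1 to 6 kb upstream and 32.2% had one 10 to 18 kb upstream. The same 3 shares were 43.7%, 12.2% and 17.0% in HEK293T, 52.8%, 26.3% and 34.4% in HFF1, 46.8%, 19.8% and 27.1% in K562, and 59.0%, 34.6% and 47.8% in mESC. The reference transcripts of human H19 and MEG3 start 6.71 kb and 46.708 kb upstream of the starts that most of their transcripts share, so the placement mattered. From those shared starts, and from Mest-202 in mouse, a placement chosen after seeing the data, the counts were 3, 2, 6, 1 and 7. Inside the windows placed upstream of MEG3, HFF1 was the only human line with a peak. Its folds were 11.8 and 9.15 at chr14:100761462-100761849, outside genes, and 6.09 and 4.14 at chr14:100815863-100816182, in a MEG3 intron of the longer transcripts. K562 had a region that both windows miss, chr14:100770726-100771507, between DLK1 and MEG3, with folds of 10.2 and 10.6. In mESC 4 regions in the intergenic window were called, the strongest at chr12:109527471-109527738 with folds of 5.79 and 5.45.

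Within 50 kb of the 10 gene bodies, the 8 human libraries held 115 merged regions, of which 85 were called in at least 1 line and 55 in exactly 1. That was 47.8% of the 115, against 49.8% of all merged human regions. Regions called in all 4 lines made up 5.22% here and 8.53% overall. Those called in 2 lines were 13.0% against 9.71%, in 3 lines 7.83% against 5.43%, and in none 26.1% against 26.5%. These shares sit near the background and are no result about the imprinted genes. In mESC 80 of 101 regions were called, and the background there was 77.4%.

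**Figure D4:**
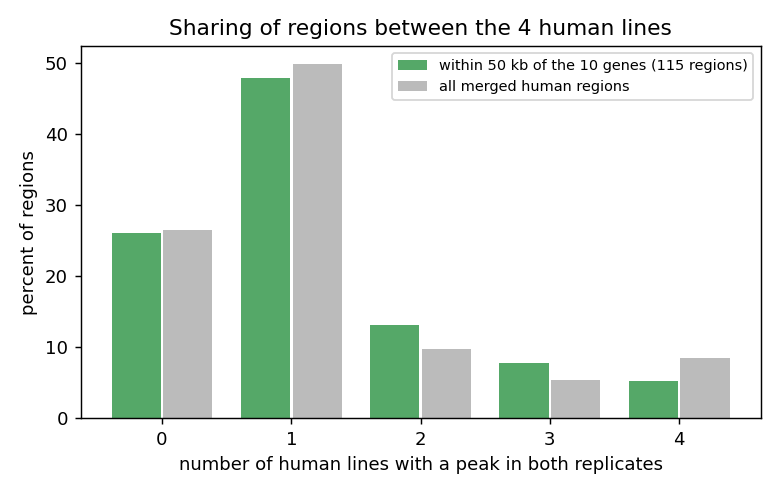
Percent of merged human regions (vertical axis) by the number of human lines in which both replicates had a peak (horizontal axis), for the 115 regions near the 10 genes (green) and all merged human regions (grey). The highest bars of both sets are at 1 line, 47.8% and 49.8%.

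Of the 115 regions, 61 (53%) were called in HFF1, 35 (30.4%) in GM12878, 30 (26.1%) in K562 and 10 (8.7%) in HEK293T. Of all merged human regions, 42.1% were called in HFF1, 36.3% in GM12878, 24.8% in K562 and 16.5% in HEK293T, the same order of lines. Some regions were called in 1 line with no peak in any library of another human line. These numbered 31 (27% of the 115) in HFF1, 10 (8.7%) in K562, 9 (7.83%) in GM12878 and 0 in HEK293T. The shares of all merged human regions were 21.2%, 6.31%, 14.7% and 1.78% in that order. After scaling to the HEK293T depth HFF1 had 36 called regions, GM12878 33, K562 22 and HEK293T 10. The scaling only removed peaks and did not level the lists. They held 74590 and 77124 peaks in HFF1, 78125 and 79256 in GM12878, 45562 and 45536 in K562, and 52438 and 52137 in HEK293T. The scaled shares of all merged regions are not given here. A region in an SGCE exon, 227 bp from an internal SGCE start (chr7:94620682-94621316), had peaks in GM12878 (folds 20.2 and 20.3) and HFF1 (21.3 and 21.1) and in neither of the other human lines. A region over a MEG3 exon (chr14:100850997-100851606) was called in the other 3 human lines and not in HFF1, with folds of 14.2 and 16.1 in GM12878, 7.98 and 9.93 in HEK293T, 11.03 and 10.5 in K562, and no peak in either HFF1 library. Upstream of DLK1, HFF1 had 7 called regions, 5 of them with no peak in any other human line. The start of SLC22A18, a transporter gene next to CDKN1C, was open in all 4 lines with folds from 9.65 to 12.8, and so was that of CEP41, a ciliary gene next to MEST, with folds from 11.5 to 16.4.

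The number of peaks within 50 kb was compared between the 4 human lines. DLK1 had 2 and 2 peaks in GM12878, 0 and 0 in HEK293T, 11 and 10 in HFF1, and 5 and 4 in K562. CDKN1C had 11 and 9, 7 and 7, 18 and 16, and 13 and 13 in the same order. MEG3 had 7 and 3, 1 and 2, 13 and 12, and 11 and 7, where GM12878 and K562 met at 7. IGF2 had 8 and 10, 4 and 3, 10 and 10, and 5 and 7, and GM12878 and HFF1 met at 10. PEG10 had 5 and 6, 1 and 2, 11 and 9, and 2 and 1, so HEK293T and K562 were the same. KCNQ1OT1 had 3 and 4, 1 and 1, 10 and 7, and 6 and 2. MEST had 4 and 4, 1 and 1, 5 and 7, and 5 and 6. SNRPN, with the longest body, had 2 and 2, 0 and 0, 3 and 2, and 1 and 1. These are raw numbers of peaks, from lists whose length was highest in HFF1 and lowest in HEK293T among the human lines.

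**Figure D5:**
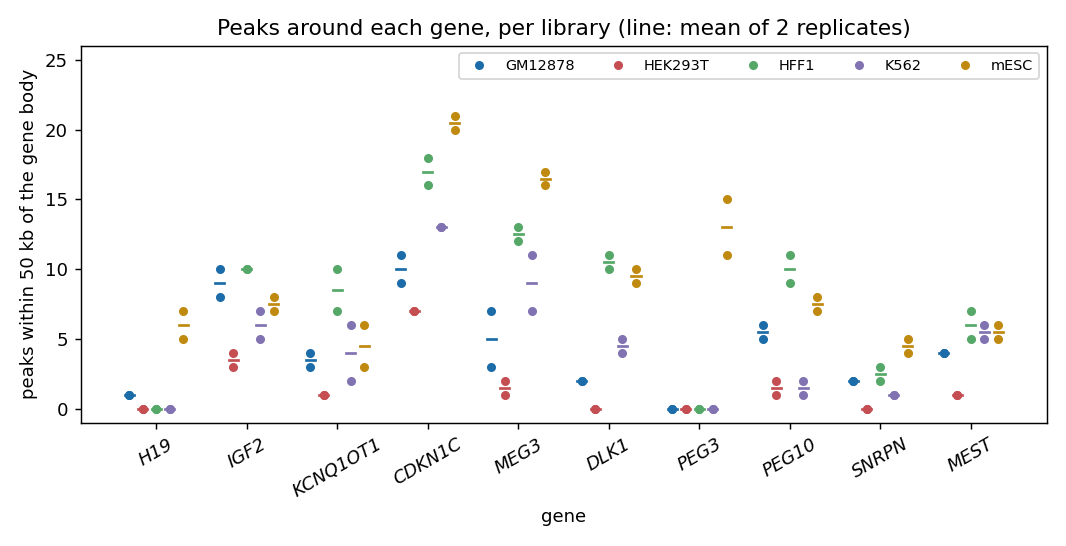
Number of peaks within 50 kb of each gene body (vertical axis) for each gene (horizontal axis), 1 dot for each library coloured by line and a short line at the mean of the 2 replicates. The HFF1 dots of DLK1 lie at 10 and 11 with the other human lines at 5 or fewer, and PEG3 has peaks in mESC alone.

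In an exact one-sided permutation test of the share of variance between lines (all ways of splitting 8 libraries into 4 pairs), 7 of the 9 genes that could be tested had p under 0.05 before adjustment, as did 56.5% of all 37933 genes tested. CDKN1C and DLK1 reached the smallest p the design allows, 0.00952, with shares of 0.969 and 0.997. After Benjamini-Hochberg adjustment over all genes, 0 genes passed 0.05 and the lowest adjusted p was 0.0557, which IGF2, CDKN1C, MEG3, DLK1, PEG10 and SNRPN shared in this permutation test. With base pairs covered in place of peak number, 8 of 9 passed, as did 79.7% of all genes. With counts per 100000 peaks of the library, DLK1 alone passed (adjusted permutation p = 0.0408), against 23.3% of all genes. The lists differ in length between the lines, as given above.

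The genes whose covered length within 50 kb was closest to that of a member over the 8 human libraries were found by Euclidean distance of log2(base pairs + 1). KCNQ1OT1 was closest to OCSTAMP (distance 0.557), PEG10 to ZNF578 (0.320) and SNRPN to DEFB128 (0.910). PEG3, at 0 in all libraries, tied with 719 genes. The most alike gene of IGF2, MEG3, DLK1, MEST and CDKN1C has no symbol in the annotation, and that of H19 (FAM90A14, 0.0586) was 1 of 3 tied.

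The sequence under the start-site peaks was described in 301 bp windows centred on each summit. CDKN1C was the richest in CpG, with up to 16.3 per 100 bases under its GM12878 summits, where the median of all start-site peaks was 6.64 and 6.31 in the 2 lists. KCNQ1OT1 main summits had 9.63 to 10.3 in the human lines and 3.65 in both mESC libraries. The K562 intronic MEST peak had 0.332 in both replicates, and the GM12878 MEG3 peak had 2.66 and 0.997. The letters TGCCGC occurred on either strand in 4 of 7 and 3 of 6 member windows in GM12878, 2 of 5 and 1 of 4 in HEK293T, 6 of 17 and 3 of 13 in HFF1, and 3 of 9 and 3 of 6 in K562. All start-site peaks of the human lists held them in 20.5% to 26.3%. In mESC 10 of 21 and 8 of 20 member windows held them, against 17.9% and 17.8% of all start-site peaks. Several of these windows overlap or belong to 1 gene, so the counts are not independent. The SNRPN windows of GM12878 and HFF1 held 2 matches each, the MEG3 start window of HFF1 held 1, and no PEG10 or IGF2 window of a human library held any. Among the 2001 bp windows at 6 control starts, the human ones held 6 matches at KCNQ1OT1, PEG3 and MEST, 5 at MEG3, 2 at SNURF and 0 at PEG10. The human MEG3 window was placed here from the start shared by most transcripts, a choice made after seeing the data. Of such windows at the reference starts of all human genes, 46.1% held at least 1 match, and the median was 0.

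Other imprinted genes were read from a list of 36 annotated in human. The list is not independent of the 10 members. In human, SGCE has a start within 1 kb of one of PEG10, SNURF of SNRPN, and ZIM2 and MIMT1 of PEG3. GM12878 had 19 of 36 called, HEK293T 18, HFF1 27 and K562 22, and mESC had 30 of the 32 annotated in mouse, all but Ndn and Rtl1. The shares of all genes called were 52.3%, 47.2%, 56.6%, 50.9% and 63.6% in these lines in the same order. DIO3, a thyroid hormone-inactivating enzyme at the far end of the DLK1 domain, was called in HFF1 and had no peak in any library of another human line. DIRAS3 and MEG8 were also called in HFF1 alone but had a peak in 1 K562 replicate. NNAT, ZIM2, MIMT1, AIRN, USP29 and ZIM3 had no start-site peak in any human library, and MAGEL2 and RTL1 had one in a single library each. ZIM2 and MIMT1 have starts in the stretch without peaks around PEG3, so their absence describes the lists used here. NDN and MKRN3, paternally expressed genes of the SNRPN domain, were called in HFF1 and K562, and K562 had none at SNRPN itself.

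Of 8 factors that maintain or read imprints, 5 were called in GM12878, HEK293T and HFF1, 6 in K562 and all 8 in mESC, where 52.3%, 47.2%, 56.6%, 50.9% and 63.6% of all genes were called. ZNF445, TRIM28, CTCF, DNMT1 and UHRF1 were called in all 5 lines, Zfp445 standing for ZNF445 in mouse. ZFP57, and DPPA3, which protects methylation in the zygote, had no start-site peak in any human library and were called in mESC. CTCFL, the germline relative of CTCF, was called in K562, with a peak in 1 replicate each of HEK293T and HFF1.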

How the data were processed

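Bulk ATAC-seq peaks were measured in 10 libraries, 2 for each of 5 lines, grouped by their labels. Per the submitters' processing notes, cutadapt 3.2, Bowtie2 2.4.2, Picard and MACS2 2.2.7.1 were used with hg38 and mm10. The role of each tool is not given in the sources used here. The authors deposited 1 peak list per library, so replicates were not pooled. Each deposited peak has a fold (a linear ratio to local background, 1 added to each), a −log10 p-value and −log10 q-value, and a score. All of these were computed by the authors, and here they serve to describe and filter peaks within 1 list.

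Peaks on the autosomes and X were compared with GENCODE 44 (human) and M21 (mouse), and coordinates count from 1. Whole-number pileups were recovered from the deposited fold and −log10 p-value in 100% of peaks. The 1 added to pileup and background lowers folds more where the background is low, as in HEK293T. The median pileup was 16 reads in HEK293T and 30 to 35 in the others. No interval for counting error was computed. Regions are peaks merged over the libraries of a species by at least 1 bp.

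The lines were tested by an exact permutation test, in Python 3.11.15 with NumPy 2.4.6, which was tested on simulated data. Alternatives were a −log10 q of at least 5, the top 50000 peaks, other windows, overlaps and units, and each library left out. The members and gene lists were chosen with earlier results of these data known. All members were named, other lists only where called in 1 human line or in none, with exceptions chosen after their values were seen. These were NDN, MKRN3, DIRAS3, MEG8, the neighbouring genes named above, and the factors ZNF445, TRIM28, CTCF, DNMT1, UHRF1 and CTCFL. Promoter sequences were taken from RefSeq (GRCh38.p14), which matched 4 of the 10 members. Human H19 and PEG3 lie in stretches where the lists used here hold no peak.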

Additional observations from a re-analysis of the deposited data

How the results depend on the processing

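Start-site counts stayed within 1.5 times the reported count in all lines under a −log10 q of at least 5 and a 500 bp window. The same held for a half-peak overlap and the reference start alone, and in the 4 human lines for the scaling to HEK293T depth. From the reference start alone, the counts of 10 were 4 in GM12878, 3 in HEK293T, 5 in HFF1, 2 in K562 and 6 in mESC. The shares of all genes called that way were 48.2%, 43.7%, 52.8%, 46.8% and 59.0% in the same order. In mESC the 50000 strongest peaks left 4 of 9 genes called, 28 regions and 3 control regions. They left 26 regions and 3 control regions in HFF1, 21 regions in GM12878 and 24 in K562. Shorter lists lower such counts for any set of genes, and the shares of all genes and regions under that limit are not given here. In K562, leaving out a replicate gave 4 to 5 genes in place of 3. With 20 kb in place of 50 kb, the regions numbered 23 in GM12878, 6 in HEK293T, 37 in HFF1 and 17 in K562, a window that holds fewer regions by construction. Scaling to HEK293T depth left 36 regions in HFF1, 33 in GM12878, 22 in K562 and 10 in HEK293T, from lists that still differed in length.

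The permutation test between lines called 0 genes by peak number, 30278 by base pairs covered and 8860 by number per 100000 peaks. Leaving out each library in turn called 0 genes, with 18754 to 20652 at an unadjusted p under 0.05. With the replicate number as a block (24 pairings), 0 genes were called and the lowest adjusted permutation p was 0.140. The smallest permutation p that 24 pairings allow is 0.0417. A call after adjustment was therefore nearly out of reach, and this setting is no check of the result. Deviations of same-numbered libraries in peak number did not correlate (Pearson r across genes from −0.00958 to 0.00663). Whether same-numbered libraries share a batch in other ways was not tested, and the labels do not name one. The lower depth of HEK293T limits what its missing peaks show.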
